A study of Mus musculus with 26 samples.

Results

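The genes described are 9 that encode subunits of the polycomb repressive complex 1 (PRC1) in mouse: Ring1, Rnf2, Bmi1, Pcgf1, Pcgf6, Cbx2, Cbx7, Cbx8 and Kdm2b. The list was drawn up by name with earlier results of these data known, no measured value enters its rule, and the genes were matched through their Ensembl identifiers to the GENCODE release M21 annotation. All 9 were found among the 53801 gene identifiers of the RNA-Seq files, and all 9 are annotated as protein-coding. The libraries come from mouse embryonic fibroblasts (MEFs) of a female line. WT cells were compared with ATRXΔRBR cells, a single CRISPR clone with an in-frame deletion of the RNA-binding region of the chromatin remodeler ATRX, and with cells labelled ATRX KD, in which ATRX was targeted by shRNA under puromycin selection. RNA-Seq had 2 libraries of each genotype. CUT&RUN, in which antibody-bound chromatin fragments are released and sequenced, gave 16 peak lists, with 2 each for ATRX in WT and ATRXΔRBR and 2 each for EZH2 and H3K27me3 in all 3 genotypes.

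PRC1 is a ubiquitin ligase that places ubiquitin on histone H2A at genes held silent by the polycomb system. Its catalytic core is RING1 or RNF2 (also named RING1B) paired with a PCGF protein, and the PCGF partner sets the form of the complex. Canonical PRC1 holds a CBX protein whose chromodomain reads H3K27me3, the mark placed by EZH2, the methyltransferase of the separate complex PRC2. Variant PRC1 has RYBP or YAF2 in place of CBX, and one variant form is brought to unmethylated CpG islands by KDM2B. In fibroblasts PRC1 is best known for silencing the Ink4 locus, whose products drive senescence.

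The estimated counts of the 6 RNA-Seq libraries summed to between 9051693 and 21723647. Atrx itself had 633 and 434 CPM (estimated counts scaled to library size) in WT, 371 and 312 in ATRXΔRBR, with 411 and 551 in the libraries labelled ATRX KD, and the labelled knockdown overlapped WT in the RNA of the targeted gene (log2 fold change −0.15 ± 0.21 SE, edgeR's quasi-likelihood test, adjusted p = 0.60). On the TPM scale (transcript abundance corrected for length) the libraries labelled ATRX KD held more Atrx, 331 and 512 against 233 and 141 in WT. The mean transcript length assigned to Atrx was 4974 and 6292 bases in WT but 2839 and 2405 in the libraries labelled ATRX KD. The TPM values therefore differ from the CPM values in part through the assigned length. For the protein, the paper describes ATRX as acutely depleted in its knockdown MEF lines and shows a western blot. The raw files of the libraries labelled ATRX KD carry names of another form than the WT and ATRXΔRBR files. A batch and the knockdown therefore cannot be told apart. Of 10 fibroblast markers, 6 had at least 1 TPM in every library and Thy1 was listed at 0 in all of them, and the summed level of the 10 ran from 7202 to 11556 TPM. Against WT, the libraries labelled ATRX KD had 2 fibroblast markers lower (Col3a1, which fell by 6.99 on the log2 scale, and Dcn) and 2 higher (Fn1, 0.99, and Pdgfrb, 0.51) by edgeR's test. In ATRXΔRBR, Col3a1 was the only fibroblast marker called against WT, lower by 0.91 (edgeR's test, adjusted p = 0.023). Of the other markers, Pecam1 was called higher there (1.48, adjusted p = 0.048) and Sox2 lower (−1.23, adjusted p = 0.010). The summed levels stayed at or under 0.91 TPM for epithelial, 5.22 for endothelial and 12.1 for blood markers. The sum of the pluripotency markers, nearly all of it Sox2, was 44.2 and 37.4 TPM in WT, 18.97 and 17.7 in ATRXΔRBR, with 1.1 and 0.55 in the libraries labelled ATRX KD. Their part in the results was not tested. EZH2 lists held 18351 and 22316 peaks in WT, 11408 and 22418 in ATRXΔRBR, with 5376 and 7093 in the cells labelled ATRX KD. For H3K27me3 the lists held 36011 and 38832, 33105 and 38651, and 6336 and 7241 peaks. The lists do not give their own read depth, and their largest −log10 q was between 170 and 179 in the lists labelled ATRX KD and at most 36.8 elsewhere.

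The promoters of the members are CpG-rich. RefSeq (GRCm38.p6) gives 10 promoter windows for 7 of the 9 genes, and the 250 bases before each start held between 12 and 38 CpG dinucleotides, against a median of 6 over 32851 promoters of the same length. The sequences of the genes to which the EZH2 and RNA results return are given here from 5′ to 3′ on the strand of the gene, each ending at the base before the start, with CG in capitals. Ring1 is shown for its RNA, which had the widest range of the 9, Bmi1 for its wide EZH2 peaks, and Kdm2b for EZH2 peaks at an inner start of the gene, which is the one shown.
Ring1 (minus strand, chr17:34024681-34024930): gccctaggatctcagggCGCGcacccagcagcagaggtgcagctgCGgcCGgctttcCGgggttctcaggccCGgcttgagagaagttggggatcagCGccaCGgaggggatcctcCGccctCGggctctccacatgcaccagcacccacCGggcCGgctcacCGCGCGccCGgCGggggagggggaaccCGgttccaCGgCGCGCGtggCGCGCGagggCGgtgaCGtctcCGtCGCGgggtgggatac
Bmi1 (plus strand, chr2:18676768-18677017): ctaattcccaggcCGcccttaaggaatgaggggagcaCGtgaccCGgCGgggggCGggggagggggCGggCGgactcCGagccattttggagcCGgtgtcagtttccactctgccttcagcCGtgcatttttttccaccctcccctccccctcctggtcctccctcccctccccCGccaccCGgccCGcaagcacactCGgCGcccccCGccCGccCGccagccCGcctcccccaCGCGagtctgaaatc
Kdm2b (minus strand, chr5:122900351-122900600): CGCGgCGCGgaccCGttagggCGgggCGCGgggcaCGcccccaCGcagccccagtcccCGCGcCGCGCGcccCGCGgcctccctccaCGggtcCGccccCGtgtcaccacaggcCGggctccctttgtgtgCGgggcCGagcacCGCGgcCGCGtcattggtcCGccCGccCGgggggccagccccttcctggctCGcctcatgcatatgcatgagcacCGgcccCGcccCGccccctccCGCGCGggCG
Kdm2b had the densest window, with 38 CpG and 80.8% GC, and 98.1% of all promoters held fewer CpG. Ring1 held 30 CpG, Cbx7 23, Cbx8 22 and Bmi1 21. Searched on both strands, GGGCGG was present in 9 of the 10 member windows and in 32.7% of all promoters, TCCCGC in 4 of 10 and in 16.9%, CACGTG in 2 of 10, those of Bmi1 and Cbx8, and in 6.02%, and CCATNTT in 2 of 10, those of Bmi1 and Cbx7, and in 12.4%. At least 1 CG was present in all 10 windows and in 92.1% of all promoters. The 4 windows of Kdm2b include a pair that overlap, so the windows are not independent, and a match of letters is a description only.

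All 9 genes were expressed in every library. On the TPM scale, on which genes can be compared, the means over the 6 libraries were 73.6 for Bmi1, 59.3 for Kdm2b, 55.7 for Rnf2, 35.7 for Pcgf6, 24.3 for Ring1, 18.0 for Pcgf1, 14.0 for Cbx8, 13.0 for Cbx2 and 11.5 for Cbx7. This order rests on the assigned mean transcript length, which was 1380 to 1744 bases for Kdm2b and 2869 to 3122 for Rnf2. The lowest single value was 8.71 TPM, of Cbx7, and the highest was 92.4 TPM, of Bmi1. Bmi1, Kdm2b and Rnf2 overlapped with each other over the libraries, as did Cbx2, Cbx7 and Cbx8, while Pcgf6, with 30.8 to 41.3 TPM, overlapped only the upper values of Ring1, which ran from 13.5 to 34.6 TPM. Of 13150 protein-coding genes with counts, 33.3% had a lower mean TPM than Cbx7 and 75.9% a lower one than Bmi1. The core ligase pair was thus unequal in RNA, with more Rnf2 than Ring1 in all 6 libraries. The 3 CBX members had the lowest means of the 9. Over the libraries, though, all 3 overlapped the lower values of Ring1, and Cbx7 and Cbx8 also overlapped Pcgf1. The CBX gene Cbx6, not among the 9, had 68.6 to 127 TPM.

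**Figure D1:**
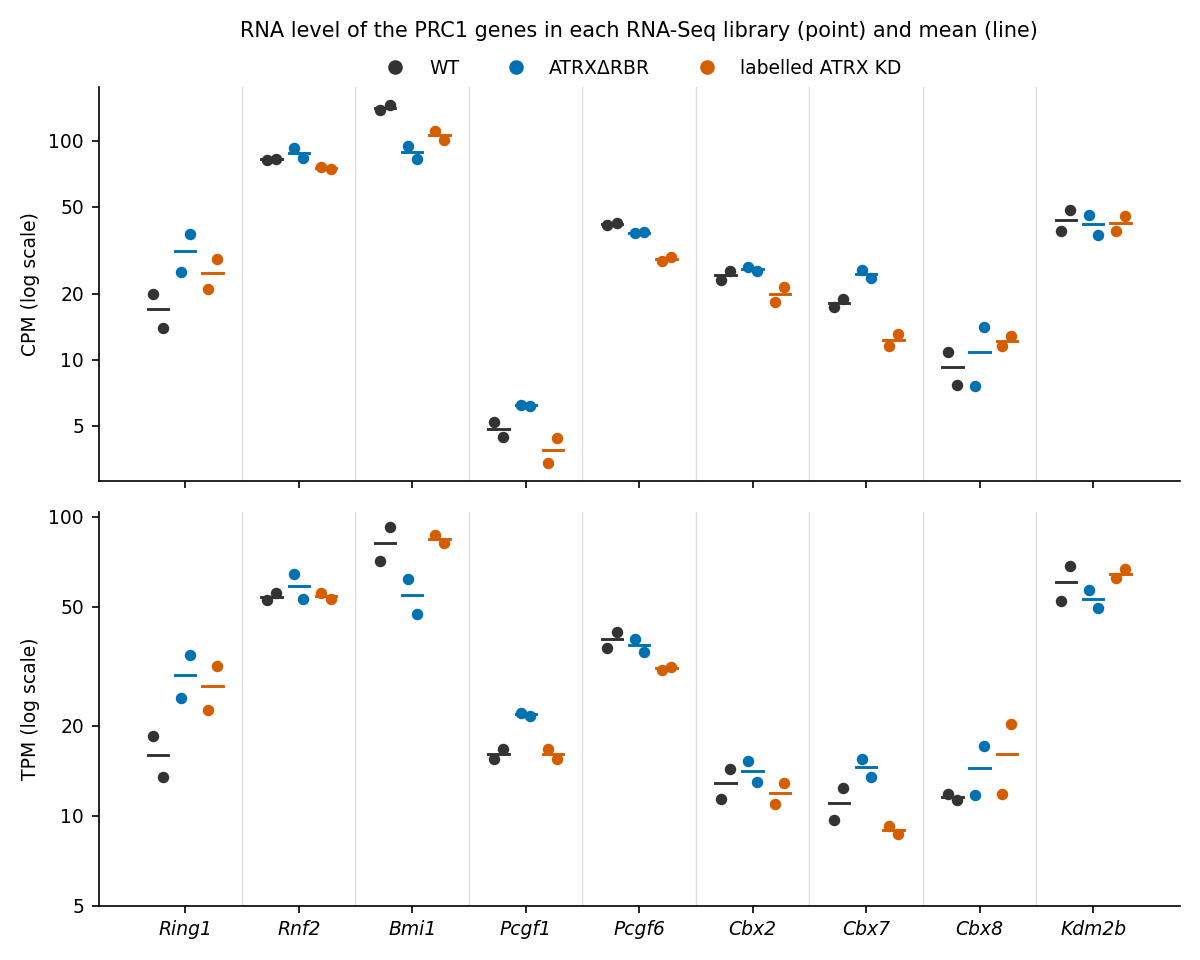
Level of each PRC1 gene in the 6 RNA-Seq libraries, as TMM-scaled CPM (upper panel) and as the deposited TPM (lower panel), both on log axes, with a point for each library and a line for the mean of a genotype. Bmi1 is highest in WT on the CPM scale at 137 and 146, while on the TPM scale its values in the libraries labelled ATRX KD, 87.2 and 81.6, lie between those of WT.

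Whether loss of the RNA-binding region changes the RNA of PRC1 genes was asked by comparing ATRXΔRBR with WT. None of the 9 genes passed the test, where 6.85% of all 16334 tested genes did (quasi-likelihood test of edgeR, Benjamini-Hochberg adjusted p under 0.05). At an unadjusted p under 0.05, 3 genes stood out, which were Bmi1 with less RNA and Ring1 and Cbx7 with more, beside 20.6% of all genes. DESeq2 called 1 gene, Bmi1, and limma on log2(TPM + 1) called 0, beside 1123 and 484 of all genes. The median log2 fold change of the 9 genes was 0.11, beside −0.02 over all tested genes. The study calls its 2 libraries of each genotype biological replicates, with no word on how the cultures were separated, and the p-values measure the spread between these libraries. In bulk RNA, fewer cells of a type and less RNA per cell cannot be told apart.

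The comparison of the libraries labelled ATRX KD with WT called 3 of the 9 genes, where 33.0% of 16785 genes were called. All 3 fell, namely Bmi1, Pcgf6 and Cbx7, and 17.8% of all tested genes were called lower. The share of PRC1 genes called was therefore near the background in this comparison. The median log2 fold change of the 9 was −0.29, beside −0.02 over all genes. None of the 3 calls held in every fit with a library left out, and the count over all genes moved as well. With a library left out, the log2 fold change of Bmi1 ran from −0.50 to −0.33. That of Pcgf6 ran from −0.56 to −0.51 and that of Cbx7 from −0.64 to −0.49. Set directly against ATRXΔRBR, the libraries labelled ATRX KD had 2 of 9 genes called, where 34.7% of 16520 genes were called, and both, Cbx7 and Pcgf6, were lower, as were 18.5% of all genes. The count called moved with the library left out, as did the count over all genes. Over 12 alternatives the log2 fold change ran from −1.09 to −0.63 for Cbx7 and from −0.44 to −0.25 for Pcgf6. The 3 comparisons share libraries, so their fold changes are not independent.

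**Figure D2:**
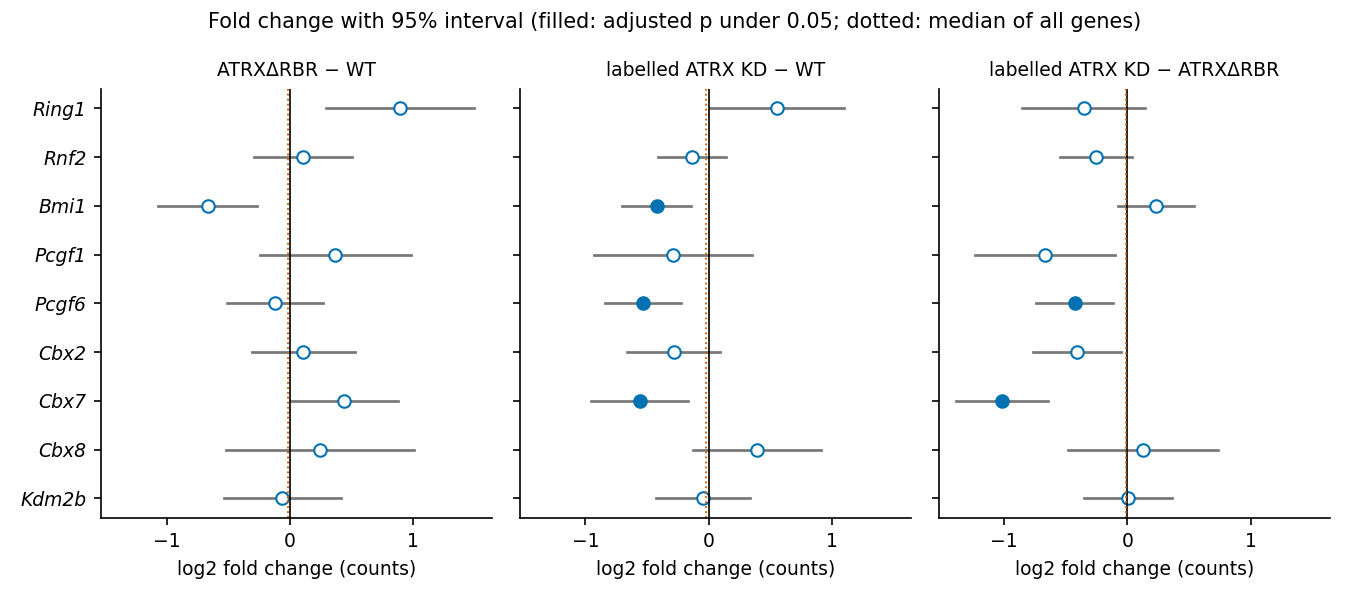
Log2 fold change of each PRC1 gene from the counts in the 3 comparisons, with its 95% interval as a line. Filled points passed edgeR's quasi-likelihood test at an adjusted p under 0.05, the dotted line is the median of all tested genes, and the only filled points are Bmi1, Pcgf6 and Cbx7, all to the left of 0.

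Ring1 and Rnf2 encode the alternative RING subunits that carry the ligase activity. Ring1 (ENSMUSG00000024325, chr17:34020792-34024680, minus strand) had 20.04 and 14.0 CPM in WT, 25.2 and 37.7 in ATRXΔRBR, with 21.04 and 28.8 in the libraries labelled ATRX KD. Both other genotypes lay above WT without overlap, although the 2 libraries within each genotype also differed, and the range of 1.39 on the log2 CPM scale was the widest of the 9 genes. The log2 fold change in ATRXΔRBR was 0.89 ± 0.26 (SE), which did not pass edgeR's test (adjusted p = 0.091, and 0.0017 to 0.31 over 12 alternatives). The value moved with single libraries. Without WT replicate 1 it was 1.18 (adjusted p = 0.0056), and without ATRXΔRBR replicate 1 it was 1.15 (adjusted p = 0.0017), with the lone library assumed to vary like the others. Without WT replicate 2 it was 0.67 (adjusted p = 0.16), without ATRXΔRBR replicate 2 it was 0.59 (adjusted p = 0.31), and with no filter on low counts it was 0.88 (adjusted p = 0.0039 by edgeR's test). For the libraries labelled ATRX KD the log2 fold change was 0.55 ± 0.23 (adjusted p = 0.11 by edgeR's test). Without WT replicate 1 it was 0.85 (adjusted p = 1.6e-07), without WT replicate 2 it was 0.35 (adjusted p = 0.026), and with no filter on low counts 0.54 (adjusted p = 0.024), and a replicate block gave 0.56 (adjusted p = 0.037). Without replicate 2 of the libraries labelled ATRX KD it was 0.32 (adjusted p = 0.51).

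Rnf2 (ENSMUSG00000026484, chr1:151458004-151500955, minus strand) had the narrowest range of the 9 genes. It had 81.8 and 82.4 CPM in WT, 92.2 and 83.5 in ATRXΔRBR, with 75.5 and 74.5 in the libraries labelled ATRX KD. The groups did not overlap, but all 6 libraries lay within 0.31 on the log2 CPM scale. The log2 fold changes were 0.11 ± 0.17 in ATRXΔRBR (adjusted p = 0.79) and −0.14 ± 0.12 in the libraries labelled ATRX KD (adjusted p = 0.40), both by edgeR's quasi-likelihood test, with 95% intervals from −0.29 to 0.50 and from −0.41 to 0.14. A change of 2-fold or more in either direction lies outside both intervals. Rnf2 shares its locus with Gm36527 on the same strand and with Trmt1l on the other strand, and the strand setting of the counting is not given in the sources used here.

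Bmi1 (ENSMUSG00000026739, chr2:18677018-18686629, plus strand) encodes a PCGF subunit of canonical PRC1 and is the textbook repressor of the Ink4 locus. It had 137 and 146 CPM in WT, 94.8 and 82.5 in ATRXΔRBR, with 111 and 101 in the libraries labelled ATRX KD. Every WT library lay above every other library. In ATRXΔRBR the log2 fold change was −0.67 ± 0.17, just short of the threshold in edgeR's test (adjusted p = 0.064). DESeq2 called it (adjusted p = 0.032), as did edgeR with no filter on low counts (adjusted p = 0.017) and with all 6 libraries in a single fit (adjusted p = 0.016), while the other 9 of 12 alternatives did not, the replicate block (adjusted p = 0.26) and limma on log2(TPM + 1) (adjusted p = 0.25) among them. Over the 12 the value stayed between −0.77 and −0.56, with an adjusted p from 0.016 to 0.28. In the libraries labelled ATRX KD Bmi1 fell by 0.42 ± 0.12 on the log2 scale of the counts (edgeR's test, adjusted p = 0.034). This call was lost with a replicate block (adjusted p = 0.062), without either library labelled ATRX KD and on the TPM scale. The mean transcript length assigned to Bmi1 was 3549 and 3242 bases in WT, 3283 and 3376 in ATRXΔRBR but 2919 and 2756 in the libraries labelled ATRX KD, and on the log2(TPM + 1) scale the difference from WT was 0.06 (limma, adjusted p = 0.81). All genes had a median of 0.17 on that scale, so that relative to this median Bmi1 differed by −0.11. Between the libraries labelled ATRX KD and ATRXΔRBR, Bmi1 did not pass edgeR's test (log2 fold change 0.23 ± 0.14, adjusted p = 0.22), while limma on log2(TPM + 1) called it higher in the former (0.63, or 0.49 relative to the median of all genes, adjusted p = 0.036).

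Pcgf1 and Pcgf6 encode the PCGF subunits of variant complexes. Pcgf1, the partner of KDM2B (ENSMUSG00000069678, chr6:83077869-83080855, plus strand), was the most thinly counted member with 31 to 95 estimated counts. It had 5.20 and 4.43 CPM in WT, 6.20 and 6.18 in ATRXΔRBR, with 3.38 and 4.40 in the libraries labelled ATRX KD. The ATRXΔRBR libraries lay above the rest, yet the log2 fold change against WT was 0.37 ± 0.27 (edgeR's test, adjusted p = 0.50) with a 95% interval from −0.24 to 0.98. The interval is the widest but one of the 9, and neither direction could be told at this depth. Against WT, the libraries labelled ATRX KD gave −0.29 ± 0.27 (adjusted p = 0.45).

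Pcgf6 (ENSMUSG00000025050, chr19:47033617-47050906, minus strand) is the PCGF of the complex that also holds MGA and E2F6. It had 41.2 and 41.9 CPM in WT, 37.9 and 38.1 in ATRXΔRBR, with 28.1 and 29.4 in the libraries labelled ATRX KD. Replicates were close and the 3 groups were fully separate. In ATRXΔRBR the log2 fold change was −0.12 ± 0.17 (edgeR's test, adjusted p = 0.75). Pcgf6 fell in the libraries labelled ATRX KD, by 0.53 ± 0.13 against WT (adjusted p = 0.020) and by 0.43 ± 0.14 against ATRXΔRBR (adjusted p = 0.040, and 0.12 in DESeq2). On the log2(TPM + 1) scale the difference from WT was −0.31, or −0.48 relative to the median of all genes, and was not called (limma, adjusted p = 0.18).

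Cbx2, Cbx7 and Cbx8 encode chromodomain readers of H3K27me3 in canonical PRC1, and Cbx2 and Cbx8 are neighbours on chromosome 11. Cbx7 (ENSMUSG00000053411, chr15:79915807-79971119, minus strand) had 17.4 and 19.0 CPM in WT, 25.6 and 23.6 in ATRXΔRBR, with 11.6 and 13.1 in the libraries labelled ATRX KD. The groups did not overlap, with ATRXΔRBR above WT and the libraries labelled ATRX KD below it. The log2 fold change in ATRXΔRBR was 0.44 ± 0.19 and did not pass edgeR's test (adjusted p = 0.23, and 0.12 to 0.68 over 12 alternatives). Cbx7 fell by 0.56 ± 0.17 in the libraries labelled ATRX KD against WT (adjusted p = 0.040), a call that DESeq2 did not make (adjusted p = 0.11). The direct comparison of the libraries labelled ATRX KD with ATRXΔRBR gave the largest change of any member, in which Cbx7 fell by 1.01 ± 0.16 (edgeR's test, adjusted p = 0.0019). It was called in 11 of 12 alternatives, and the exception was limma on log2(TPM + 1), with −0.63 (adjusted p = 0.073), or −0.77 relative to the median of all genes. Cbx7 overlaps Apobec3 on the other strand.

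Cbx2 (ENSMUSG00000025577, chr11:119022962-119031270, plus strand) had 23.2 and 25.4 CPM in WT, 26.6 and 25.5 in ATRXΔRBR, with 18.3 and 21.4 in the libraries labelled ATRX KD. ATRXΔRBR lay narrowly above WT and the libraries labelled ATRX KD below it. The log2 fold changes were 0.11 ± 0.18 (adjusted p = 0.80) and −0.29 ± 0.16 (adjusted p = 0.21) by edgeR's test. Cbx8 (ENSMUSG00000025578, chr11:119036305-119040969, minus strand) had 10.9 and 7.68 CPM in WT, 7.56 and 14.1 in ATRXΔRBR, with 11.6 and 12.8 in the libraries labelled ATRX KD. The ATRXΔRBR libraries spanned the whole WT range. The log2 fold changes were 0.24 ± 0.33 (adjusted p = 0.74) and 0.39 ± 0.22 (adjusted p = 0.22), and without ATRXΔRBR replicate 2 the former was −0.27.

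Kdm2b (ENSMUSG00000029475, chr5:122870665-122989823, minus strand) encodes the CXXC protein that binds unmethylated CpG. It had 38.5 and 48.4 CPM in WT, 45.7 and 37.2 in ATRXΔRBR, with 38.8 and 45.3 in the libraries labelled ATRX KD. The 3 groups overlapped. The log2 fold changes were −0.06 ± 0.20 in ATRXΔRBR (adjusted p = 0.91) and −0.05 ± 0.16 in the libraries labelled ATRX KD (adjusted p = 0.85) by edgeR's test, with 95% intervals from −0.53 to 0.41 and from −0.43 to 0.34. Gm43411 and Gm44574 overlap Kdm2b on its strand, and A930024E05Rik and Rnf34 on the other.

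Ring1 was set against every expressed protein-coding gene because its level varied most. Over the 6 libraries, the 5 genes whose log2 CPM followed it most closely were Fbxo6 (Pearson r = 0.984), Fh1 (0.982), Fadd (0.982), Sephs2 (0.974) and Vps72 (0.973). Fbxo6 had 47.6 and 45.3 CPM in WT, 50.3 and 56.4 in ATRXΔRBR, with 48.8 and 51.6 in the libraries labelled ATRX KD. Of 11416 genes compared, 115 had an r over 0.9, and with 6 libraries in 3 pairs that share a genotype these values are a description. Ring1 and Cbx8 had the largest replicate differences in WT and ATRXΔRBR. On the log2 scale of replicate 2 over replicate 1, Ring1 had −0.51 in WT and 0.58 in ATRXΔRBR, and Cbx8 had −0.50 and 0.90, so WT replicate 1 and ATRXΔRBR replicate 2 were the high libraries for both.

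Of 28 further PRC1 genes (other CBX, PCGF, PHC and variant subunits), 27 could be tested. In ATRXΔRBR the median log2 fold change was 0.03, and Scml2, an SCM-type subunit, was called lower, with 18.3 and 23.97 CPM in WT, 0.210 and 0.582 in ATRXΔRBR, with 4.25 and 4.63 in the libraries labelled ATRX KD. Its RNA was nearly gone from ATRXΔRBR, with 2 and 8 estimated counts against 239 and 287 in WT, and the log2 fold change was −5.60 ± 0.39 (edgeR's test, adjusted p = 0.00036).

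In the libraries labelled ATRX KD, 5 of the 27 genes were called higher and 5 lower against WT, where 33.0% of all genes were called in either direction, with a median log2 fold change of 0.04. Scml2 fell by 2.24 ± 0.21 (adjusted p = 0.00062). Bcorl1, a variant PRC1 co-repressor subunit, rose by 0.98 ± 0.15 (adjusted p = 0.0036). Skp1a, an adaptor found with KDM2B and PCGF1, fell by 0.90 ± 0.14 (adjusted p = 0.0037). Against ATRXΔRBR, 6 were higher and 6 lower by edgeR's test, beside 34.7% of all genes called. Scml2 rose by 3.34 ± 0.45 (adjusted p = 0.00067) and E2f6, a DNA-binding partner of PCGF6, by 0.95 ± 0.14 (adjusted p = 0.0012). The CBX gene Cbx6 fell by 0.91 ± 0.13 (adjusted p = 0.00099) and Yaf2, the paralogue of Rybp, fell by 0.77 ± 0.13 (adjusted p = 0.0022). Of 6 genes for H2A deubiquitination, the reaction that reverses that of PRC1, none was called in ATRXΔRBR by edgeR, where 2 had an unadjusted p under 0.05, beside 20.6% of all genes. In the libraries labelled ATRX KD 3 of these 6 were higher and 1 was lower, beside 33.0% of all genes called. Asxl1, a cofactor of the deubiquitinase BAP1, had 73.1 and 92.5 CPM in WT and 166 and 167 there, a rise of 1.00 ± 0.14 (adjusted p = 0.0028). Its paralogue Asxl3 had 11.9 and 19.9 CPM in WT, 8.61 and 5.82 in ATRXΔRBR, with 0.327 and 0.602 in the libraries labelled ATRX KD, and fell by 4.94 ± 0.41 against WT (adjusted p = 0.00037) and fell by 3.82 ± 0.40 against ATRXΔRBR (adjusted p = 0.00017). The Ink4 genes Cdkn2a and Cdkn2b fell by 0.91 ± 0.24 (adjusted p = 0.027) and 1.08 ± 0.16 (adjusted p = 0.0035) in the libraries labelled ATRX KD by edgeR's test, and neither was called in ATRXΔRBR. Both were expressed in every library, Cdkn2a with 698 to 1405 TPM and Cdkn2b with 82.6 to 219 TPM.

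The CUT&RUN lists were read at the transcription start site (TSS), taken as the outermost start of the gene with 2 kb on each side, and over the gene. No member had an ATRX peak at the TSS in both lists of WT, where 3.74% of 21938 protein-coding genes did, and none in both lists of ATRXΔRBR, where 3.08% did, so that a count of 0 is near the share over all genes. Single lists held peaks of low enrichment. WT replicate 1 had a peak of 332 bp over the TSS of Cbx8 (chr11:119040736-119041067, fold enrichment 3.89, −log10 q 1.58) and another of 156 bp at the inner start of Kdm2b (chr5:122900335-122900490, fold enrichment 3.81, −log10 q 1.48). ATRXΔRBR replicate 2 had 2 peaks inside Cbx7. With 2 lists against 2 the smallest two-sided p of an exact permutation test is 0.333, so the lists are compared without a test.

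EZH2 peaks lay at most of the PRC1 promoters. In WT, both lists placed an EZH2 peak at the TSS of 7 of the 9 genes, where 44.9% of all protein-coding genes and 66.6% of the expressed ones did. The share is near that of expressed genes. The 2 others were Cbx7 and Kdm2b, whose outermost annotated starts lay 38332 and 89501 bp from the midpoint of the peak in WT replicate 1. When any annotated transcript start was allowed, all 9 genes had an EZH2 peak in both WT lists, beside 48.2% of protein-coding genes. All 9 are expressed, and the share over expressed genes, 66.6% at the outermost TSS, was not computed for this rule. In ATRXΔRBR 5 of 9 had a peak at the TSS in both lists (32.4% of protein-coding genes and 49.5% of the expressed ones), namely Bmi1, Pcgf1, Pcgf6, Cbx2 and Cbx8, and any transcript start gave 6 (35.0%). Replicate 1 of ATRXΔRBR had a peak at 8 members and the smaller list of replicate 2 at 5. In the cells labelled ATRX KD 4 of 9 had a peak at the TSS in both lists (16.4%, and 23.7% of the expressed ones), which were the same genes without Pcgf6, and any transcript start also gave 4 (17.6%). Over the whole gene the counts in both lists were 8 in WT (48.5%), 6 in ATRXΔRBR (34.2%) and 4 in the cells labelled ATRX KD (15.3%). These shares are over all protein-coding genes, and those over expressed genes were not computed.

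Among peaks that covered a member TSS, the widest lay at Bmi1 in WT replicates 1 and 2 and ATRXΔRBR replicate 1, and at Cbx8 in ATRXΔRBR replicate 2. The Bmi1 peak covered 3731 bp in WT replicate 1 (chr2:18676063-18679793), where it ranked 127 of 22316 peaks by fold enrichment, and in WT replicate 2 it covered 5157 bp and ranked 444 of 18351. In ATRXΔRBR replicate 1 the peak covered 6863 bp (chr2:18675099-18681961) and ranked 22 of 22418, and in replicate 2 it covered 3143 bp and ranked 144 of 11408. In these 4 lists 97.6% to 99.9% of all peaks had a lower enrichment than that of Bmi1. In the cells labelled ATRX KD the peaks covered 1234 and 1474 bp and began inside the gene, and they ranked 469 of 5376 and 2003 of 7093. Bmi1 was also the member with the highest mean TPM over the 6 libraries. In ATRXΔRBR, though, Rnf2 lay above it, with 64.2 and 53.2 TPM against 61.98 and 47.35. H3K27me3 was listed at the TSS of Bmi1 only as short peaks. These were of 790 bp in ATRXΔRBR replicate 1 and of 357 bp in replicate 1 of the cells labelled ATRX KD.

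At Ring1 the EZH2 peaks spanned 794 bp in WT replicate 1, 911 bp in WT replicate 2 and 822 bp in ATRXΔRBR replicate 1, and each covered the TSS. They were wider than 67.6% to 78.2% of the peaks of their lists. ATRXΔRBR replicate 2 and both lists labelled ATRX KD held none there. Ring1 and Pcgf6 were the 2 members whose TSS held EZH2 in both WT lists but in neither list labelled ATRX KD, where 27.2% of 13137 expressed protein-coding genes had that pattern. The lists labelled ATRX KD are the shorter ones, and a difference in depth was not tested. At Kdm2b both WT lists had an EZH2 peak at the inner start shown above, of 1555 bp (chr5:122899545-122901099) and 972 bp, as did both ATRXΔRBR lists with 1114 and 715 bp. Replicate 2 of the cells labelled ATRX KD had a peak of 268 bp, 446 bp from the nearest start. A shorter form of KDM2B that lacks the demethylase domain is known to start inside the gene. At Cbx7 the peaks of 226 and 281 bp in WT and of 365 bp in ATRXΔRBR replicate 1 lay at the inner start, and only 18.9% to 26.5% of the peaks of those lists had a lower fold enrichment.

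**Figure D3:**
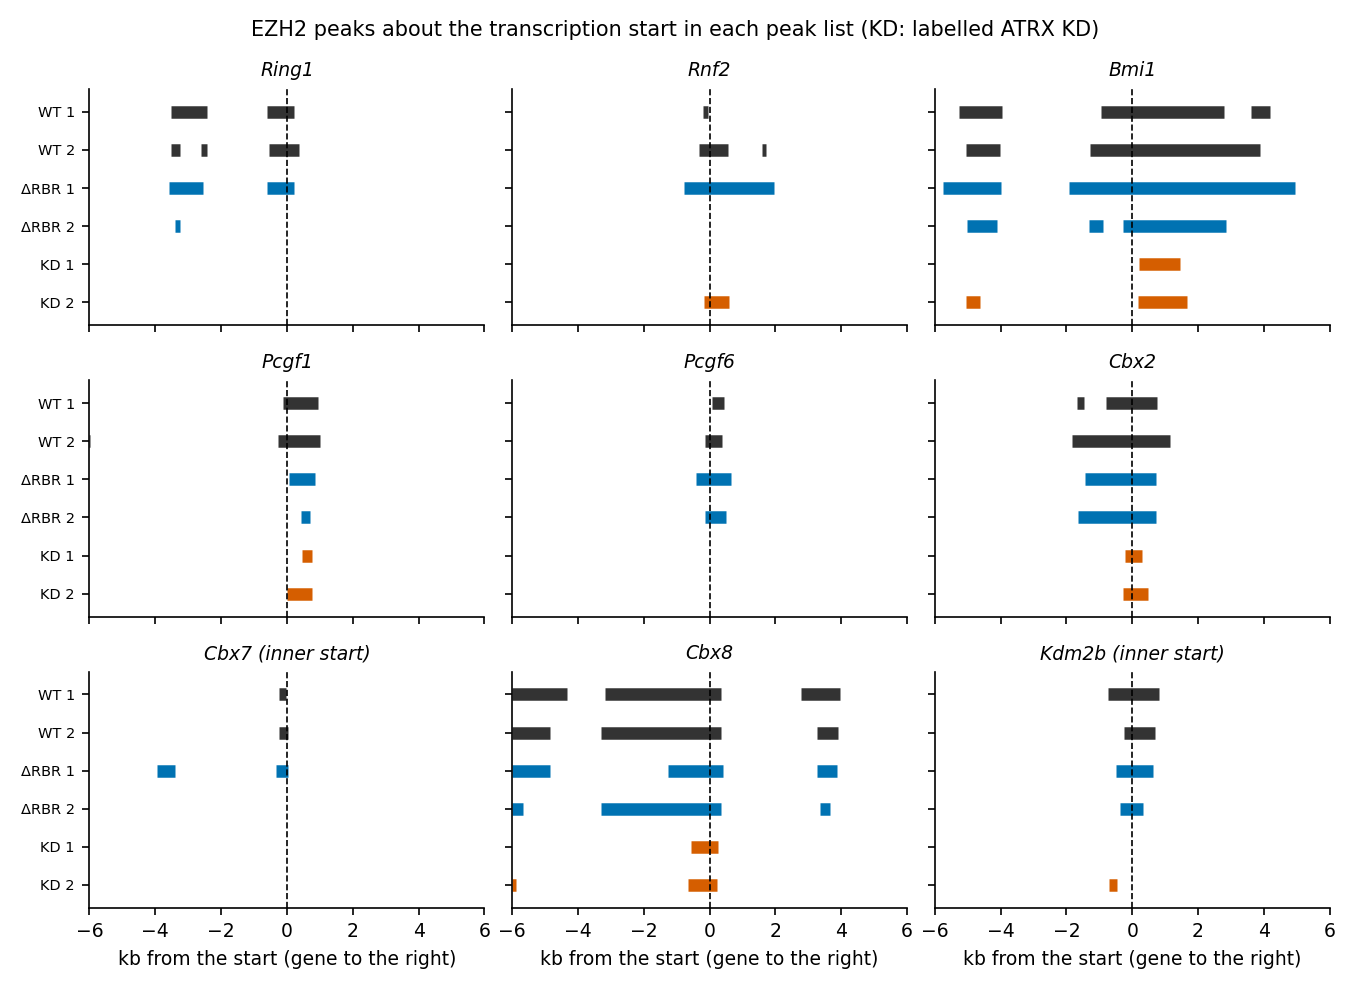
EZH2 peaks within 6 kb of the start of each PRC1 gene in the 6 lists, drawn as bars against the distance from the start in kb, with the gene to the right. For Cbx7 and Kdm2b the inner start is used. The bars over the start of Bmi1 reach 6863 bp, and the bars of the lists labelled ATRX KD within 2 kb of a TSS are at most 1474 bp long.

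The count of PRC1 genes with H3K27me3 was near the share over all genes. In WT 1 of 9 had a peak at the TSS in both lists, where 14.7% of protein-coding genes and 7.68% of the expressed ones did. In ATRXΔRBR it was again 1 of 9 (13.7%), and in the cells labelled ATRX KD 0 of 9 (4.23%). The gene was Cbx8 in both WT and ATRXΔRBR, and it was the only member that had the mark in both WT lists and in neither list labelled ATRX KD, a pattern of 3.78% of expressed protein-coding genes. The peaks reached the window of Cbx8 from outside. They began 177 and 70 bp before its TSS in WT and 288 and 282 bp before it in ATRXΔRBR, and none covered the TSS or the gene.

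These peaks are the edge of a domain on the upstream side of Cbx8. It ran over 24509 bp in WT replicate 1 (chr11:119041146-119065654) and 23208 bp in WT replicate 2, and over 23309 and 24519 bp in ATRXΔRBR. By fold enrichment it ranked 63 of 36011 and 76 of 38832 peaks in WT, and 57 of 38651 and 80 of 33105 in ATRXΔRBR. WT and ATRXΔRBR overlapped in its width. The lists labelled ATRX KD had 2 short H3K27me3 peaks in that span, of 358 and 560 bp in replicate 1 and of 560 and 572 bp in replicate 2.

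EZH2 peaks lay in the same span. A single peak of 14627 bp (chr11:119045293-119059919) was listed in WT replicate 1 and another of 14384 bp in ATRXΔRBR replicate 1, while WT replicate 2 had peaks of 4601 and 8795 bp and ATRXΔRBR replicate 2 had peaks of 3747, 7654 and 476 bp. In the cells labelled ATRX KD the peaks of the span were 243, 329 and 439 bp wide in replicate 1 and 1610, 1553 and 1318 bp wide in replicate 2. At the TSS of Cbx8 itself the EZH2 peak covered 3530 and 3652 bp in WT, 1668 and 3645 bp in ATRXΔRBR, with 812 and 879 bp in the cells labelled ATRX KD. WT and ATRXΔRBR overlapped, and both lists labelled ATRX KD had the narrower peaks. At Cbx2 the corresponding peaks over the TSS were 1559 and 2963 bp, 2168 and 2369 bp, and 524 and 748 bp wide. The RNA of Cbx8, at the edge of the domain, was not called in any comparison by edgeR's test with no library left out. Over 12 alternatives its log2 fold change against WT ran from 0.17 to 0.65 in the libraries labelled ATRX KD. In ATRXΔRBR it ran from −0.27 to 0.61.

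**Figure D4:**
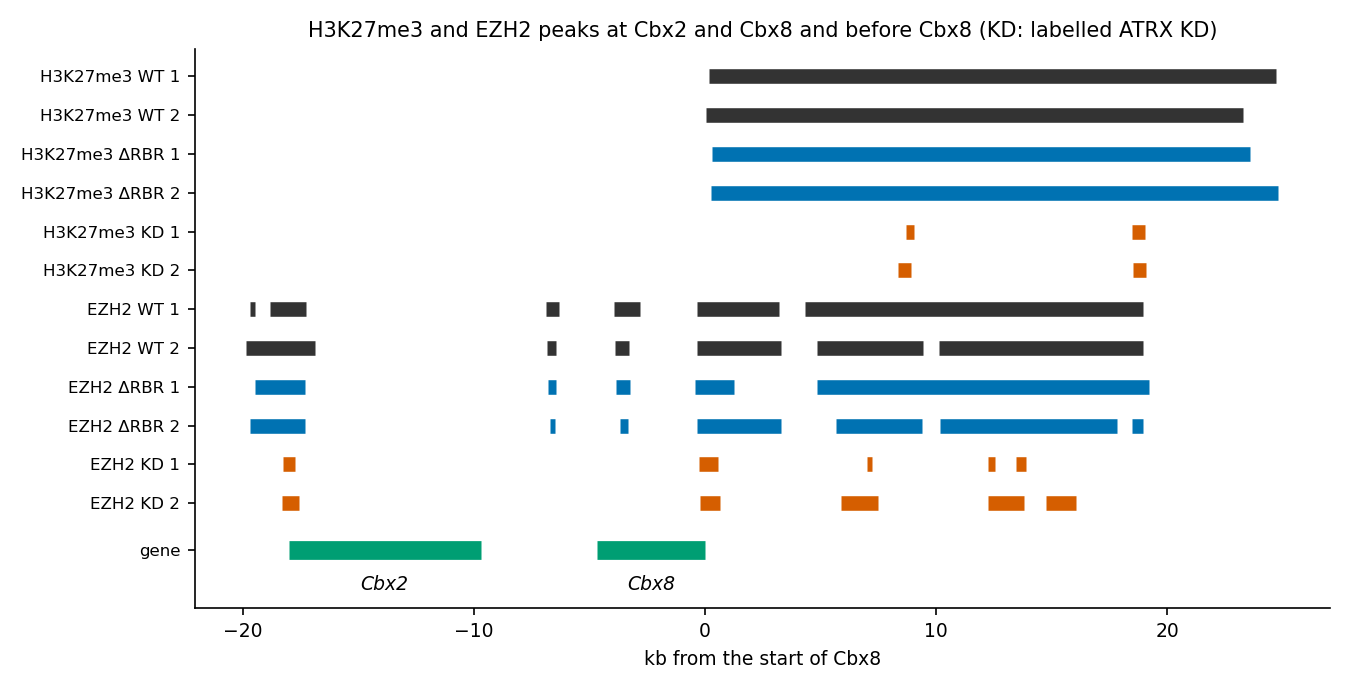
H3K27me3 and EZH2 peaks at Cbx2 and Cbx8 and on the upstream side of Cbx8 in each list, as bars against the distance in kb from the start of Cbx8, with both genes below. In WT and ATRXΔRBR a single H3K27me3 peak runs from next to Cbx8 over 23208 to 24519 bp, and the lists labelled ATRX KD hold 2 short peaks there.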

How the data were processed

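The authors mapped CUT&RUN reads to mm10 using Bowtie2 and ran MACS2 on every library for broad peaks (broad cutoff q of 0.1), and the deposited peak lists give fold enrichment and −log10 q for each peak. PolyA RNA-Seq reads were aligned with STAR, and the deposited RSEM tables give the authors' estimated count and TPM for each gene. The study names the versions of these tools, which are not repeated here, and a directional RNA kit, and the strand setting of RSEM is not given in the sources used here. IgG libraries are not analysed here, and the values of a gene in the lists are not reported here. The antibody to H3K27me3 is named differently in 2 places of the study's methods.

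The 9 genes and the gene lists were chosen with earlier results of these data known. All 9 genes are named, and of the other lists at most the 5 called genes with the smallest adjusted p. Estimated counts were rounded. Genes whose counts summed to over 10 across the compared libraries were fitted with edgeR 4.0.16 in R 4.3.3 (TMM scaling, quasi-likelihood test, Benjamini-Hochberg adjustment over all genes, threshold 0.05), using the libraries of the 2 genotypes compared. The steps were tested on simulated counts, with known changes put into genes with a mean of at least 50 counts. For ATRXΔRBR against WT, a log2 fold change of −1 was called in 54% of 50 genes. A log2 fold change of 1 was called in 68% of 50 genes, and unchanged genes were called in 0.13%. Alternatives were DESeq2 1.42.0, its size factors in edgeR, other filters, all 6 libraries in a single fit, a replicate block, limma 3.58.1 on log2(TPM + 1), and leaving out each library. CPM values are TMM-scaled.

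A peak was assigned by an overlap of at least 1 bp with the window of 2 kb on each side of the TSS or with the gene in GENCODE M21 (mm10 coordinates, the same as GRCm38). Alternatives were a window of 1 kb, any transcript start, a q of 0.01 or less, the peak's midpoint and at least 50% of the peak inside the window. Over all 55536 annotated genes, EZH2 peaks lay at the TSS in both lists for 22.9% in WT, 16.3% in ATRXΔRBR and 8.22% in the cells labelled ATRX KD. Promoters came from RefSeq GRCm38.p6. Python 3.11.15, pandas 2.3.3 and matplotlib 3.10.9 were used.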

Additional observations from a re-analysis of the deposited data

How the results depend on the processing

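Of 324 member fold changes recomputed, 273 kept their direction and side of the threshold, 16 lost a call, 22 gained one and 13 changed sign. Of 56 recomputed peak counts, 48 stayed within 1.5 times. In ATRXΔRBR against WT the count of members called was 1 in DESeq2, 2 with no filter, 1 with all 6 libraries in a single fit, and 0 to 1 when a library was left out. In the libraries labelled ATRX KD against WT it was 0 in limma on log2(TPM + 1) and 0 to 6 when a library was left out. Against ATRXΔRBR it was 1 in DESeq2, 1 with no filter, 1 in limma (Bmi1, higher) and 1 to 6 when a library was left out. A fit with 1 library left in an arm assumes that it varies like the others. On log2(TPM + 1), the labelled ATRX KD against WT changed sign for Rnf2 (0.011), Bmi1 (0.056), Pcgf1 (0.0031) and Kdm2b (0.11), on a scale that moved all genes by a median of 0.17, and relative to that median all 4 stayed negative (−0.16, −0.11, −0.17 and −0.06). With a library left out, Cbx8 ran from −0.27 to 0.61 and Kdm2b from −0.21 to 0.12 in ATRXΔRBR, Kdm2b from −0.20 to 0.14 in the libraries labelled ATRX KD, and against ATRXΔRBR Cbx8 from −0.23 to 0.67 and Kdm2b from −0.13 to 0.16, with −0.00027 in the fit of all 6. The other causes were not tested.

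The replicate numbers are not stated to pair libraries. Replicate differences correlated at −0.73 over 10404 genes in ATRXΔRBR against WT, −0.12 in the labelled ATRX KD against WT and 0.16 against ATRXΔRBR. With the replicate block the members called were 0, 3 (Ring1, Pcgf6 and Cbx7, without Bmi1) and 4. Over all genes the block called 1071 of 16334, 5792 of 16785 and 6775 of 16520. A crossed pairing, chosen after seeing the data, called 3 and 4 members in the comparisons with WT. Over all genes it called 5585 of 16334 and 6465 of 16785. With a list left out, members with a peak at the TSS numbered 0 to 1 for ATRX in WT, 5 to 8 for EZH2 and 1 to 2 for H3K27me3 in ATRXΔRBR, and 0 to 1 for H3K27me3 in the labelled ATRX KD. Cbx8 lost its H3K27me3 assignment (0 members in WT and 0 in ATRXΔRBR) when at least 50% of the peak or its midpoint had to lie in the window. The study gives only a common range of reads per sample, so the depth behind each peak list is unknown.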
